A study of Mus musculus with 8 samples.

Results

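Circular RNAs (circRNAs) from 6 host genes that encode regulators of RNA fate were followed across 8 libraries of mouse kidney total RNA. The hosts were Cpeb3, Samd4, Mbnl2, Cnot2, Cpsf6 and Tdrd3, and every listed circRNA carrying one of these gene names was taken, 25 of 6315 in all. Cpeb3 had 8 circRNAs, Tdrd3 6, Cnot2 4, Cpsf6 4, Samd4 2 and Mbnl2 1. The 6 hosts were chosen by what their genes encode, with the log2 fold changes of their circRNAs in obstructed and in AC kidneys against control already known. The members' values in both of those comparisons are therefore a description and carry no test, and tests are given only for obstructed against AC kidneys.

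Kidneys came from C57BL/6L mice aged 8 to 10 weeks and were sequenced as 3 control, 2 acute-chronic (AC) and 3 unilateral ureteral obstruction (UUO) libraries. UUO ties off the ureter of one kidney, and the titles place the AC and UUO kidneys at day 5. Controls are wild type by their titles and sham-operated by the design text, which also has ischaemia/reperfusion (I/R) where the sample labels have AC. No other allele or agent is given, nor the time of the control kidneys. Nothing in the labels ties each library to its own animal, so a p-value here speaks of the spread between libraries only, which could be technical.

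A circRNA forms when a downstream splice site is joined back to an upstream one of the same transcript, which leaves a closed loop without free ends that is more stable than most linear RNA. Its level need not follow that of the host's linear messenger RNA, which is not analysed here. The host genes act at successive steps in the life of a messenger RNA. Cpsf6 encodes a subunit of cleavage factor Im, which helps to choose where the poly(A) tail is added, and Mbnl2 encodes a muscleblind protein that steers alternative splicing. Cpeb3 encodes a protein that binds cytoplasmic polyadenylation elements and controls translation, and Samd4 encodes Smaug, a translational repressor that recognises RNA hairpins. Smaug proteins can recruit the CCR4-NOT deadenylase, of which Cnot2 is a subunit, and Tdrd3 encodes a Tudor protein that reads methylated arginine and partners a topoisomerase acting on RNA.

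The promoters of the 4 hosts whose leading circRNAs passed the threshold against control are shown here, since a circRNA is cut from a transcript that starts at one of its host's promoters. The leading circRNA of a host is the one with the highest mean level over the 8 libraries. Each sequence is the 250 bases before the RefSeq start nearest to the source transcript of the leading circRNA, in build GRCm38.p6, and capitals mark a GC box (GGGCGG on either strand).
Samd4, chr14:46882715-46882964, plus strand: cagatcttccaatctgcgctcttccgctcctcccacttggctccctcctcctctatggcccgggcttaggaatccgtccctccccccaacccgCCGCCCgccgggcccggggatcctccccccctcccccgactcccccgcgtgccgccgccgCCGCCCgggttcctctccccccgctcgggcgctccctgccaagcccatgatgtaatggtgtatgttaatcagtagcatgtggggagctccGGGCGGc
Mbnl2, chr14:120275419-120275668, plus strand: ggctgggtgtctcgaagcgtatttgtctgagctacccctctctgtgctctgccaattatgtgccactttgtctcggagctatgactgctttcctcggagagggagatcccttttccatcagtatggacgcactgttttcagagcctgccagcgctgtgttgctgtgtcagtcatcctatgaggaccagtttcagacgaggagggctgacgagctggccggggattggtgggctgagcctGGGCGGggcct
Cpeb3, chr19:37207472-37207721, minus strand: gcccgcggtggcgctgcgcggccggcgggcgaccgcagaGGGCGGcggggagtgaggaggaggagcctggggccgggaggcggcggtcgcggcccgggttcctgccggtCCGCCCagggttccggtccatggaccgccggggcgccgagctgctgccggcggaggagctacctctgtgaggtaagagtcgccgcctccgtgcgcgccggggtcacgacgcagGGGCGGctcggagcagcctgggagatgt
Tdrd3, chr14:87416333-87416582, plus strand: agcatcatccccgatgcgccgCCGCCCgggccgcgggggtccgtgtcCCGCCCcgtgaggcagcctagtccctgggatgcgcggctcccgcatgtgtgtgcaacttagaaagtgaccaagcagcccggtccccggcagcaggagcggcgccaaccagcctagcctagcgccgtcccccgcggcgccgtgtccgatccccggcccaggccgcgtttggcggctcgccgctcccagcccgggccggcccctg
The GC box was found 3 times before Samd4, 1 time before Mbnl2, 3 times before Cpeb3 and 2 times before Tdrd3, and 32.7% of all 32851 promoters in the table hold it within the same length. CpG dinucleotides in this window numbered 22 before Samd4, 10 before Mbnl2, 36 before Cpeb3 and 32 before Tdrd3. Cpsf6 and Cnot2, whose promoters are not printed, had 23 and 10, and the median over all promoters was 6. Whether CpG numbers go with the circRNA levels was not tested. The CCAAT box (CCAAT, either strand) was found 1 time before Samd4 and 2 times before Mbnl2, and 33.8% of all promoters hold it. Neither the AP-1 site (TGANTCA) nor the TATA box (TATAAA) was matched in any of the 4 windows, where 6.75% and 12.4% of all promoters hold them, and no matches of different motifs overlapped. These matches describe letters only, since no measurement of promoter activity was made.

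Libraries held between 40865 and 65145 circRNA counts, so 3 counts in a library were worth between 56.6 and 87.5 CPM (the usual scaled count, here relative to the counts left in a library after the low-count filter, with TMM factors). The 25 members made up between 0.64% and 0.73% of the counts of a control library, between 0.475% and 0.509% in AC and between 0.439% and 0.571% in UUO. The filter on low counts left 1471 of 6315 circRNAs, among them 11 of the 25 members. The other 14 members had between 2 and 47 counts over the 8 libraries together, with at most 12 in 1 library. The deposited column of experimental evidence had an entry for 7 of the 25 members and for 1084 of all 6315 rows. Marker hosts of some kidney cell types differed between control and injured libraries as well, while the ranges of others overlapped. The single listed injured-tubule host of 6, Dcdc2a, summed to between 75.5 and 133 CPM in control, between 2285 and 2479 CPM in AC and between 3172 and 3569 CPM in UUO. The single listed distal nephron host of 6, Klhl3, summed to between 1985 and 2699 CPM in control, between 353 and 700 CPM in AC and between 355 and 677 CPM in UUO. Of 8 proximal tubule hosts, 2 were listed (Lrp2 and Slc4a4), at 1622 to 3435 CPM in control, 1313 to 1555 CPM in AC and 1197 to 1649 CPM in UUO. Of 6 cell division hosts, 3 were listed, at 372 to 434 CPM in control, 992 to 1414 CPM in AC and 1134 to 1573 CPM in UUO. Of 6 endothelial hosts, 2 were listed, at 94.4 to 133 CPM in control, 0 to 263 CPM in AC and 25.4 to 210 CPM in UUO, while hosts chosen to mark collecting duct, podocytes, fibroblasts and immune cells had no listed circRNA. In whole tissue, fewer cells of a type and less RNA per cell cannot be told apart, and the part of these markers in the results below was not tested.

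In UUO against control, 2 of the 11 tested members passed an adjusted p of 0.05 upward (Samd4 mmu_circ_0000529 and Mbnl2 mmu_circ_0004992), where 2.86% of all 1471 tested circRNAs did so (4.35% in either direction). Another 2 passed downward (Cpeb3 mmu_circ_0007737 and Tdrd3 mmu_circ_0000561), where 1.5% of all did. The same 4 circRNAs passed in AC against control, where 1.9% of all tested circRNAs passed upward and 1.43% downward (3.33% in either direction). Nothing is read from these shares, because these comparisons chose the hosts and share the control libraries. The median log2 fold change of the 11 tested members was -0.45 in UUO and -0.77 in AC against control, beside 0.02 and -0.02 over all tested circRNAs. With the deposited scaling constant in place of the library size, the medians over all circRNAs were -0.26 and -0.34.

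**Figure D1:**
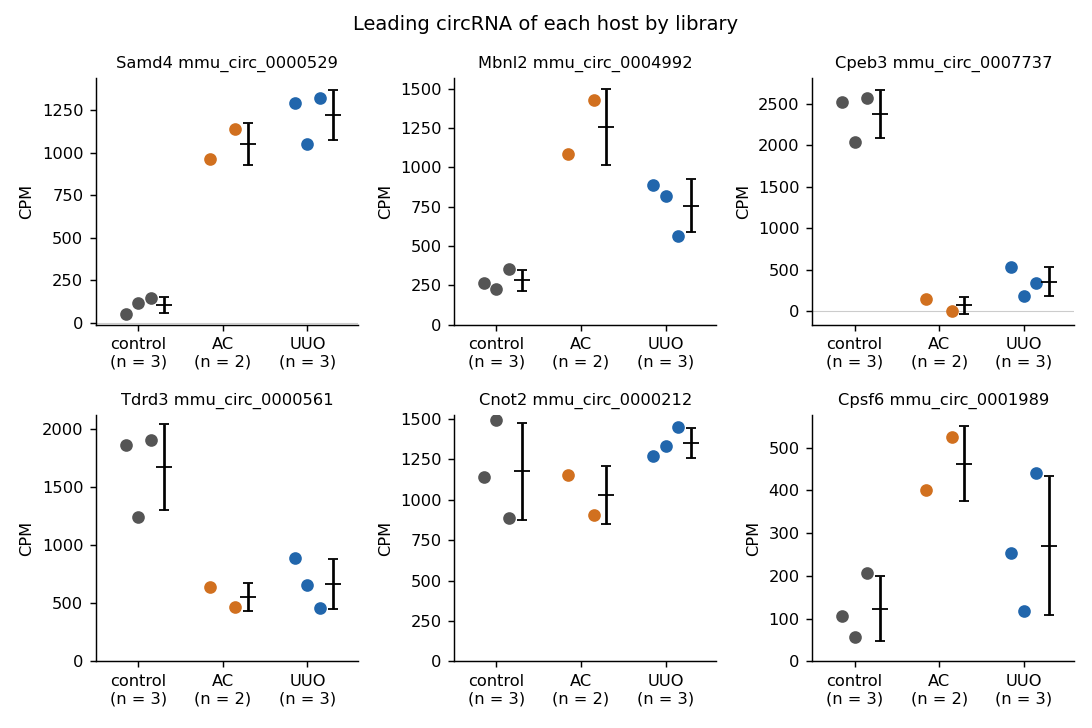
Level of the leading circRNA of each of the 6 hosts in CPM on a linear axis, by group; each point is 1 library, and the black line and bar beside the points give the mean and SD of the group. Samd4 and Mbnl2 lay above all control libraries in every injured library, Cpeb3 and Tdrd3 lay below them, and the injured libraries of Cnot2 lay within the control range.

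The leading circRNA of Cpeb3, mmu_circ_0007737, was the most abundant member in control kidney and was near the detection floor in AC. In the order of their replicate numbers, the control libraries held 95, 108 and 124 counts of it, the AC libraries 6 and 0, and the UUO libraries 21, 8 and 16. All control libraries lay above all UUO libraries, and all UUO libraries above both AC libraries. The level was 2376 ± 293 CPM (SD, n = 3) in control and 352 ± 174 CPM (SD, n = 3) in UUO, and the pair of AC libraries stood at 141 and 0 CPM. It was 6.75-fold lower in UUO than in control (log2 fold change -2.75, SE 0.43). Against control, AC was 29.8-fold lower (log2 -4.90, SE 0.64), but that size rests on the library with no count. Without AC replicate 2 it was 16.8-fold lower, and without AC replicate 1, which leaves AC at 0, it was at least 27.2-fold lower by a floor of 3 counts over the group. With limma-voom it was not called in AC.

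The other 7 Cpeb3 circRNAs were scarce, and only mmu_circ_0000948 and mmu_circ_0007736 passed the filter. For mmu_circ_0000948 the counts were 11, 24 and 15 in control, 7 and 1 in AC and 1, 5 and 4 in UUO, and its log2 fold change was -2.17 (SE 0.87) in UUO and -1.79 (SE 0.99) in AC against control. The AC value was -3.52 without AC replicate 1 and -1.11 without AC replicate 2. For mmu_circ_0007736 they were 7, 22 and 12 in control, 9 and 4 in AC and 4, 5 and 2 in UUO, with log2 fold changes of -1.70 (SE 0.85) and -0.77 (SE 0.92). Both lay lower in UUO than in any control library, whereas in AC the second overlapped control, and neither passed the threshold. Among the 5 untested Cpeb3 circRNAs, mmu_circ_0007738 had 12 counts over the control libraries, 2 in UUO and 0 in AC. Its ratio of control to UUO was 5.61 (95% exact interval from 1.25 to 51.6), and AC lay at least 2.29-fold below control. A different order appeared in mmu_circ_0007740, with 18 counts over the control libraries, 16 in UUO and 1 in AC, so that control exceeded AC 9.94-fold (95% exact interval from 1.57 to 414). Such intervals and floors cover counting error only. The remaining 3 had 6, 2 and 2 counts (mmu_circ_0000947), 2, 2 and 5 counts (mmu_circ_0007739) and 2, 0 and 0 counts (mmu_circ_0007741) in control, AC and UUO.

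Samd4 had the highest fold above control among the tested members, from a circRNA that was close to the detection floor in control kidney. The counts of mmu_circ_0000529 were 2, 6 and 7 in control, 41 and 39 in AC and 51, 45 and 63 in UUO. Every injured library lay far above every control library, and the AC and UUO libraries overlapped. It passed the low-count filter through the injured libraries, since no control library reached 10 counts. The level was 104 ± 46.5 CPM (SD, n = 3) in control, 1052 ± 121 CPM (SD, n = 2) in AC and 1223 ± 149 CPM (SD, n = 3) in UUO. This was 11.2-fold above control in UUO (log2 3.48, SE 0.41) and 9.60-fold in AC (log2 3.26, SE 0.44). The second Samd4 circRNA, mmu_circ_0005249, had 1 count in control, 0 in AC and 3 in UUO, all 3 of them in UUO replicate 3.

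Mbnl2 was listed with 1 circRNA, mmu_circ_0004992, which was higher in both injuries and highest in AC. Its counts were 10, 12 and 17 in control, 46 and 49 in AC and 35, 35 and 27 in UUO. The groups did not overlap, with control lowest, UUO between and AC on top. The level was 281 ± 63.9 CPM (SD, n = 3) in control, 757.5 ± 169 CPM (SD, n = 3) in UUO and, in AC, 1257 ± 244 CPM (SD, n = 2). It was 2.67-fold above control in UUO (log2 1.42, SE 0.37) and 4.42-fold in AC (log2 2.14, SE 0.40). The call in UUO was lost without each one of the 8 libraries in turn, although the fold stayed between 2.39 and 2.99. The call in AC was lost without AC replicate 2, where the fold was 3.76.

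Tdrd3 resembled Cpeb3 in direction with smaller differences. Its leading circRNA, mmu_circ_0000561, had 70, 66 and 92 counts in control, 27 and 16 in AC and 35, 28 and 22 in UUO. All injured libraries lay below all control libraries, and AC and UUO overlapped. The level was 1670 ± 368 CPM (SD, n = 3) in control, 551 ± 120 CPM (SD, n = 2) in AC and 668 ± 213 CPM (SD, n = 3) in UUO. It was 2.50-fold lower in UUO (log2 -1.32, SE 0.33) and 2.99-fold lower in AC (log2 -1.58, SE 0.39). Each call held without 3 of the 8 libraries, one left out at a time. The call in UUO was lost without control replicate 1 or 3 or any UUO replicate, where the fold stayed between 2.20 and 2.97. The call in AC was lost without control replicate 1 or 3, either AC replicate or UUO replicate 2.

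The other 5 circRNAs of Tdrd3 did not all follow the leading one. For mmu_circ_0005486 the counts were 8, 16 and 22 in control, 8 and 1 in AC and 2, 3 and 4 in UUO, with log2 fold changes of -2.19 (SE 0.91) in UUO and -1.51 (SE 1.01) in AC. The AC value was -3.40 without AC replicate 1 and -0.80 without AC replicate 2. For mmu_circ_0005488 they were 16, 22 and 10 in control, 7 and 3 in AC and 7, 4 and 23 in UUO, with log2 fold changes of -0.45 (SE 0.66) and -1.42 (SE 0.81). Its UUO replicate 3 was above every control library in CPM, and the other 2 UUO libraries were below. The untested mmu_circ_0005487 had 10, 3 and 5 counts in control, none in AC and 7, 5 and 8 in UUO, so that AC lay at least 3.63-fold below control and UUO at least 3.94-fold above AC. For mmu_circ_0005489 the 25 counts of the control libraries faced 1 in AC and 5 in UUO, all 5 in UUO replicate 1, and the ratio of control to AC was 13.8 (95% exact interval from 2.26 to 567). For mmu_circ_0005490 the 17 counts of the control libraries faced 2 in AC and 2 in UUO, and control exceeded UUO 7.94-fold (95% exact interval from 1.89 to 70.9).

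Cnot2, the deadenylase subunit, gave an abundant circRNA with small differences between groups. The counts of mmu_circ_0000212 were 43, 79 and 43 in control, 49 and 31 in AC and 50, 57 and 69 in UUO. In CPM all injured libraries lay within the control range, at 1174 ± 302 CPM (SD, n = 3) in control, 1029 ± 177 CPM (SD, n = 2) in AC and 1350 ± 91.4 CPM (SD, n = 3) in UUO. The log2 fold change was 0.20 (SE 0.29) in UUO, which turned to -0.12 with the deposited constant as library size, and -0.19 (SE 0.33) in AC. For mmu_circ_0001981 the counts were 7, 11 and 24 in control, 13 and 17 in AC and 16, 13 and 26 in UUO, with log2 fold changes of 0.49 (SE 0.51) and 0.41 (SE 0.58). The other two Cnot2 circRNAs went untested: mmu_circ_0001976 had 2 counts, both in control replicate 1, and mmu_circ_0001979 had 0, 1 and 0 counts in control, 8 and 4 in AC and none in UUO. The source transcripts of mmu_circ_0001976, mmu_circ_0001979 and mmu_circ_0001981 are of the nonsense-mediated decay type in GENCODE M21, that of mmu_circ_0000212 is not.

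Cpsf6, the cleavage factor subunit, gave scarce circRNAs. The most abundant, mmu_circ_0001989, had 4, 3 and 10 counts in control, 17 and 18 in AC and 10, 5 and 21 in UUO. Both AC libraries lay above the control libraries, and the UUO libraries spread from within the control range to that of AC. The level was 123 ± 76.5 CPM (SD, n = 3) in control, 463 ± 88.1 CPM (SD, n = 2) in AC and 270.5 ± 163 CPM (SD, n = 3) in UUO. The log2 fold change was 1.13 (SE 0.68) in UUO and 1.88 (SE 0.73) in AC, and neither passed the threshold. The untested mmu_circ_0000215 had 3, 5 and 11 counts in control, 2 and 4 in AC and 10, 7 and 5 in UUO. The last pair, mmu_circ_0000214 and mmu_circ_0001988, had 9 and 4 counts in control, 9 and 0 in AC and 7 and 4 in UUO, all of the UUO counts in replicate 3.

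**Figure D2:**
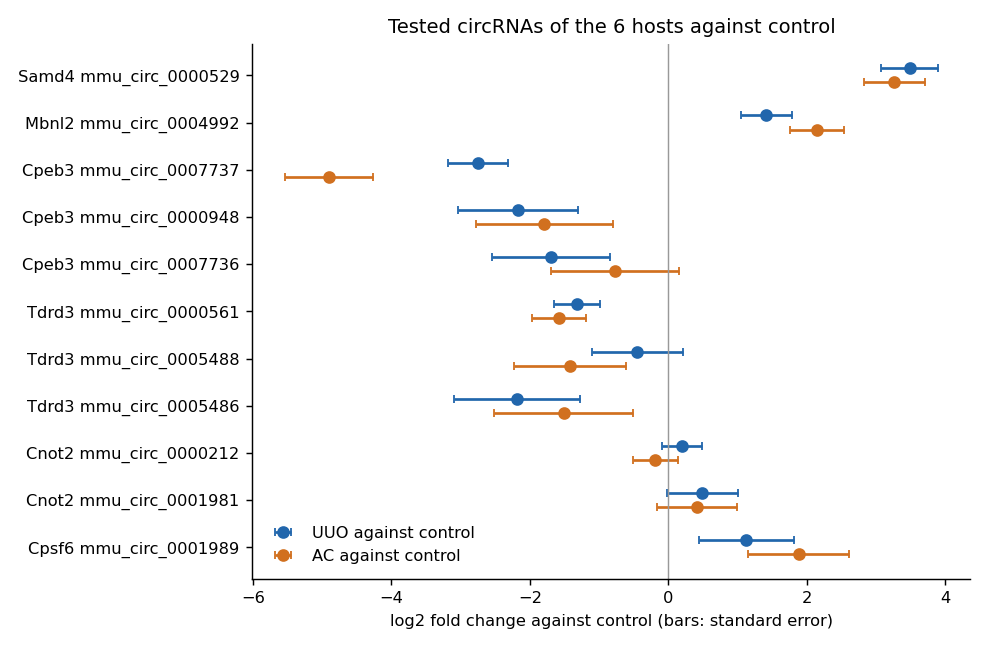
Log2 fold change against control of the 11 tested member circRNAs, with UUO and AC side by side and bars of 1 standard error; the vertical line at 0 means no difference from control. The plot is a description of values that were used to choose the hosts; Samd4 mmu_circ_0000529 reached 3.48 in UUO, and Cpeb3 mmu_circ_0007737 lay at -4.90 in AC.

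The counts of all circRNAs of a host were also summed. Each sum contains the leading circRNA, so it was bound to move with it where that circRNA gives most counts. For Mbnl2 the sum is the leading circRNA alone. For Samd4 the leading circRNA held 93.8% of the counts in control, 100% in AC and 98.1% in UUO. In UUO against control, 4 of the 6 host sums passed (Samd4 and Mbnl2 upward, Cpeb3 and Tdrd3 downward), where 6.5% of 1185 tested host sums did (3.71% upward and 2.78% downward). In AC the same 4 passed, where 3.46% did (2.03% upward and 1.43% downward). As for single circRNAs, these shares describe the choice of hosts. In UUO the Mbnl2 call was not made in 6 of 8 fits with 1 library left out (all but those without AC replicate 1 or UUO replicate 3), and the Tdrd3 call not without control replicate 3, UUO replicate 2 or UUO replicate 3. In AC neither the Mbnl2 nor the Tdrd3 call was made without AC replicate 2. The Cpeb3 sum was 126, 171 and 161 counts in control, 25 and 7 in AC and 40, 22 and 29 in UUO, or 3302 ± 65.6 CPM (SD, n = 3), 397 ± 272 CPM (SD, n = 2) and 713 ± 266 CPM (SD, n = 3). Its log2 fold change was -2.27 (SE 0.33) in UUO and -3.04 (SE 0.42) in AC. The latter was -4.05 without AC replicate 1 and -2.52 without AC replicate 2. The Tdrd3 sum was 119, 120 and 143 counts in control, 45 and 20 in AC and 56, 40 and 59 in UUO, with log2 fold changes of -1.27 (SE 0.29) and -1.77 (SE 0.35). The sums of Cnot2 and Cpsf6 had log2 fold changes of 0.18 and 0.53 in UUO and of 0.04 and 0.89 in AC, and none passed. With the deposited constant as library size the Cnot2 values were -0.07 and -0.27.

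How much of the lower sums of Cpeb3 and Tdrd3 lay in the leading circRNA is described here without a test. The 7 other Cpeb3 circRNAs together had 31, 63 and 37 counts in control, 19 and 7 in AC and 19, 14 and 13 in UUO. That was 926 ± 230 CPM (SD, n = 3) in control, 2.57-fold less in UUO (361 ± 109 CPM, SD, n = 3) and 2.84-fold less in AC (326 ± 172 CPM, SD, n = 2). The leading circRNA's share of all Cpeb3 counts, pooled over libraries, was 71.4% in control (327 of 458), 49.5% in UUO (45 of 91) and 18.8% in AC (6 of 32). The exact 95% intervals of these shares ran from 67.0% to 75.5%, from 38.8% to 60.1% and from 7.21% to 36.4%. By library the share was between 63.2% and 77.0% in control and between 36.4% and 55.2% in UUO. It was 24% and 0% in AC replicates 1 and 2, so the AC share rests on which of them is kept. The isoform-use fit of edgeR weighs the spread between libraries. In it a circRNA is set against all tested circRNAs of its host together, itself included, so the value is not its difference from the others. The log2 value of the leading Cpeb3 circRNA was -0.14 in UUO and -1.23 in AC against control. It passed the threshold in neither injury, where 0% (UUO) and 0.142% (AC) of all did. This too is a description, since these comparisons chose the hosts. For Tdrd3 the 5 others were at 1125 ± 155 CPM (SD, n = 3) in control, 2.12-fold less in UUO and 4.16-fold less in AC. The pooled share of the leading Tdrd3 circRNA was 59.7% in control, 54.8% in UUO and 66.2% in AC. By library it was between 55% and 64.3% in control, 60% and 80% in AC, and 62.5%, 70% and 37.3% in UUO, where replicate 3 lay below the rest.

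**Figure D3:**
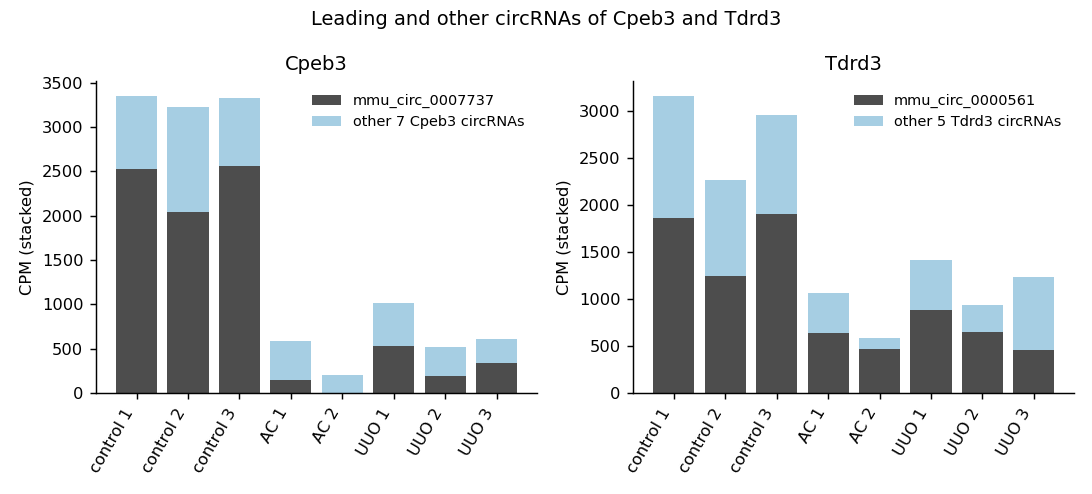
Stacked bars of the CPM of the leading circRNA (dark) and of all other circRNAs of the same host (light) for Cpeb3 and Tdrd3; each bar is 1 library. For Cpeb3 both parts were lower in injured kidneys, with means of the leading circRNA of 2376 CPM in control, 352 CPM in UUO and 70.7 CPM in AC, and of the others of 926, 361 and 326 CPM.

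UUO and AC kidneys were compared directly to ask whether the hosts differ between the injuries, a comparison that did not choose them, although it rests on the same injured libraries. None of the 11 tested members passed an adjusted p of 0.05 with the quasi-likelihood test of edgeR, where 0% of all 1471 tested circRNAs passed. At an unadjusted p under 0.05 the numbers were 1 member and 82 circRNAs of all (5.57%), DESeq2 called 2 circRNAs of all and limma-voom 0, and no member was among them. The member was Cpeb3 mmu_circ_0007737, which was higher in UUO in 3 of 3 libraries, with a log2 difference of 2.14 (95% interval from 0.65 to 3.64, adjusted p = 0.816 with edgeR). Without AC replicate 2 this log2 difference was 1.30. Without AC replicate 1 the AC group is at 0, and UUO lay at least 4.02-fold above it by a floor of 3 counts over the group. The lowest adjusted p over the settings was 0.154, in that fit against a single library at 0. Mbnl2 mmu_circ_0004992 was lower in UUO in 3 of 3 libraries, with a log2 difference of -0.73 (95% interval from -1.52 to 0.06, edgeR adjusted p = 0.857). Cnot2 mmu_circ_0000212 was higher in UUO in 3 of 3 libraries, with a log2 difference of 0.39 (95% interval from -0.31 to 1.08, edgeR adjusted p = 0.939). Without overlap between UUO and AC were thus 3 of 11 members, where 24.3% of all tested circRNAs were.

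For the remaining leading circRNAs the interval of the difference included 0, as it did for those of Mbnl2 and Cnot2. Samd4 mmu_circ_0000529 differed by a log2 of 0.22 (95% interval from -0.55 to 0.99, edgeR adjusted p = 0.987). Tdrd3 mmu_circ_0000561 differed by 0.26 (95% interval from -0.58 to 1.10, edgeR adjusted p = 0.973) and Cpsf6 mmu_circ_0001989 by -0.76 (95% interval from -2.24 to 0.72, edgeR adjusted p = 0.939). A p above the threshold does not show that the injuries act alike, and the interval of Cpsf6, the scarcest of these, was the widest. The 5 other tested members had log2 differences between -0.92 (Cpeb3 mmu_circ_0007736) and 0.97 (Tdrd3 mmu_circ_0005488), with edgeR adjusted p-values between 0.939 and 0.997. Of the 6 host sums none passed, where 0% of 1185 did. At an unadjusted p under 0.05 were 71 of all host sums (5.99%) and no member, and DESeq2 called 1 host sum and limma-voom 0. The nearest by unadjusted p were Mbnl2 (log2 -0.74, 95% interval from -1.56 to 0.07, edgeR adjusted p = 0.819) and Cpeb3 (log2 0.77, 95% interval from -0.12 to 1.67, edgeR adjusted p = 0.819). Tdrd3 had the same edgeR adjusted p of 0.819 (log2 0.50, 95% interval from -0.22 to 1.23).

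**Figure D4:**
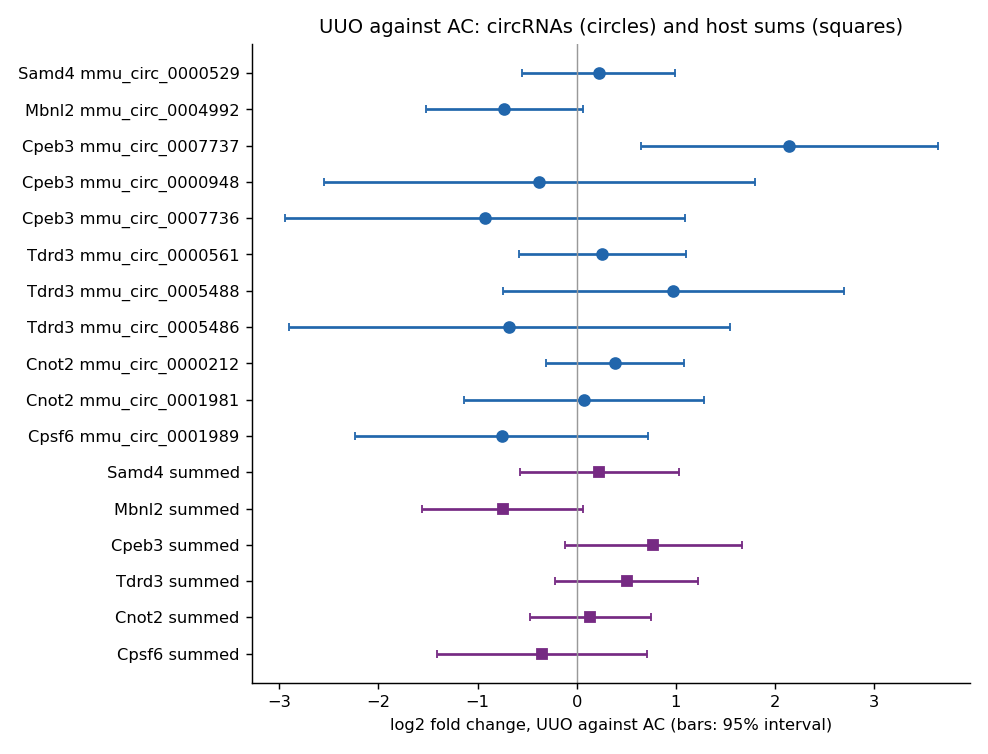
Log2 difference of UUO minus AC for the 11 tested member circRNAs and the 6 host sums, with 95% intervals from the edgeR fit; the vertical line at 0 means no difference. Cpeb3 mmu_circ_0007737 at 2.14 is the one whose unadjusted interval lies above 0, and none passed after adjustment.

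Whether a circRNA took a different share of its host's counts in UUO than in AC was tested with the isoform-use test of edgeR, over 705 circRNAs of hosts with at least 2 tested circRNAs. Of the 8 member circRNAs in that test none passed, where 0.142% of all did (1 circRNA, of the trafficking host Dennd1b). At an unadjusted p under 0.05 were 16 circRNAs of all (2.27%) and 1 member, and limma's diffSplice called 0. Cpeb3 mmu_circ_0007737 took a larger share in UUO, by 1.09 on the log2 scale (adjusted p = 0.999 with edgeR). That value is relative to all tested circRNAs of its host together, itself included. For the other 7 the edgeR adjusted p was 0.999 as well, with log2 values between -1.03 and 0.46.

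Other genes of the same steps were compared to see what the hosts share with their pathways. The 7 lists held 224 genes beside the 6 hosts, and 32 of these genes had 43 tested circRNAs. None passed an adjusted p of 0.05 with edgeR in UUO or AC against control, or in UUO against AC. At an unadjusted p under 0.05 were 4, 7 and 3 of the 43, where 15.5%, 14.1% and 5.57% of all 1471 circRNAs were. In UUO against control 22 of the 43 lay above 0 and 21 below, with a median log2 fold change of 0.01, and in AC against control 17 lay above and 26 below, with a median of -0.07. The 6 tested circRNAs of the CPEB and cytoplasmic polyadenylation list had medians of -0.49 in UUO and -0.23 in AC against control. The 8 of the CCR4-NOT list had medians of 0.06 and -0.09, the 2 of cleavage and polyadenylation 0.51 and 0.87, and the 5 of splicing regulators -0.05 and -0.12. The 0.87 in AC lies between 2 unlike values, 1.77 (SE 1.17) and -0.03 (SE 0.71). The 15 of messenger RNA decay had medians of -0.18 and -0.05, the 7 of Tudor and stress granule proteins -0.06 and -0.65, and the 6 of translation factors 0.26 and -0.08.

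Several of these genes are named for their values, chosen after those were seen. Xrn2, a nuclear exoribonuclease, came closest, with 94, 153 and 95 counts of mmu_circ_0009421 in control, 129 and 145 in AC and 167, 191 and 182 in UUO. Its log2 fold change was 0.77 (SE 0.22) in UUO against control with an edgeR adjusted p of 0.0549, and DESeq2, limma-voom, the fit of control and UUO alone and the fit without control replicate 2 called it higher. In AC against control the log2 fold change of Xrn2 was 0.56 (SE 0.24, edgeR adjusted p = 0.294). Eif4e3, a cap-binding translation factor, had 5, 2 and 4 counts of mmu_circ_0001501 in control, 12 and 12 in AC and 12, 11 and 24 in UUO. Against control its log2 fold change was 2.08 (SE 0.68, edgeR adjusted p = 0.106) in UUO and 1.91 (SE 0.75, edgeR adjusted p = 0.237) in AC. Mbnl1, the paralog of Mbnl2, had 0, 5 and 9 counts of mmu_circ_0010743 in control, 4 and 9 in AC and 0, 5 and 12 in UUO, too few to place beside the Mbnl2 values. Its log2 fold change was 0.37 (SE 1.39) in UUO and 0.86 (SE 1.53) in AC against control.

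**Figure D5:**
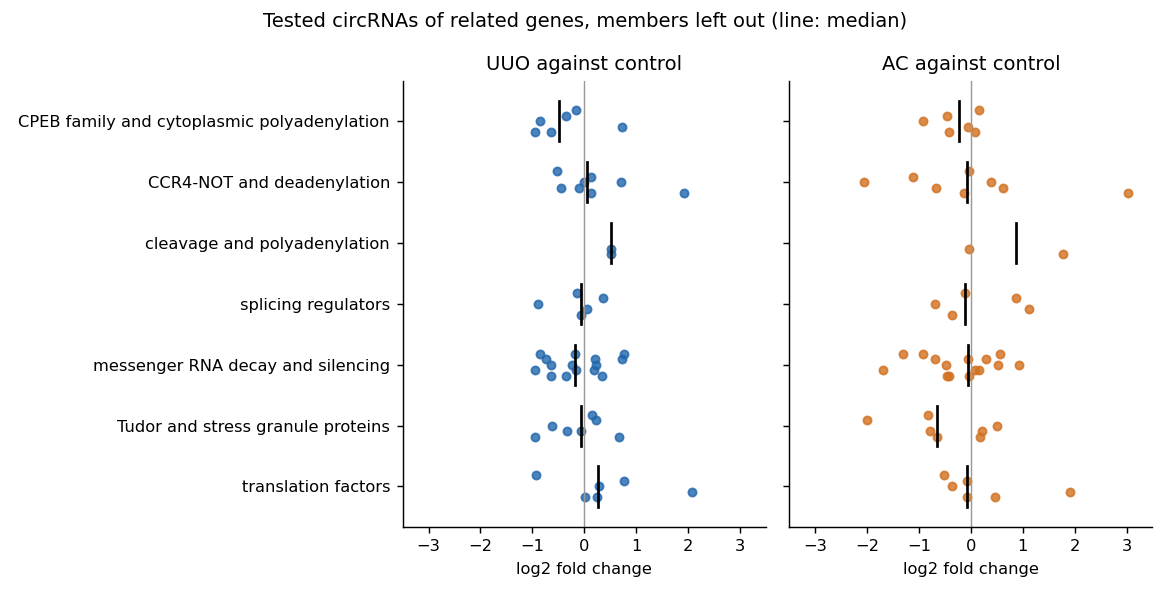
Log2 fold change against control of the 43 tested circRNAs of related genes, by list and comparison, where each point is 1 circRNA and a circRNA in 2 lists is drawn in both. The list medians run from -0.49 to 0.51 in UUO and from -0.65 to 0.87 in AC, and no point passed the threshold of adjusted p 0.05. The 0.87 is the middle of 2 unlike values.

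For each leading circRNA the tested circRNAs of other hosts with the most similar pattern were found by Pearson correlation of log2 CPM over the 8 libraries. These are the highest of at least 1468 correlations each, over points that share libraries, groups and depth, and they carry no test. Cpeb3 was most like Lactb2 (r = 0.957), which encodes a mitochondrial ribonuclease, and Slc4a4 (r = 0.952), the bicarbonate cotransporter of the proximal tubule and 1 of the marker hosts above. Tdrd3 was most like Fbxo8 (r = 0.973) and Tbcel (r = 0.968). Samd4 was most like Vav3 (r = 0.996) and Osmr (r = 0.980), the oncostatin M receptor. Mbnl2 was most like Mtap1s (r = 0.973) and the insulin receptor gene Insr (r = 0.960). For Cnot2 the nearest were Specc1l (r = 0.902) and Fbxw4 (r = 0.893), and for Cpsf6 Iqgap1 (r = 0.940) and H6pd (r = 0.934).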

How the data were processed

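The authors deposited whole-number counts per circRNA and library, and a signal table. Judging by the values, each deposited signal is the count over a constant of its library (8718 to 11941). Signal times constant matched the deposited count within a relative tolerance of 0.01 for 100% of rows. What the constant stands for, which circRNA caller was run and how it split reads shared within a host remain not given in the sources used here. HISAT2, StringTie and build mm9 are named per the submitters' processing notes. No annotation of mm9 was used, hence no circRNA coordinates are given; promoters came from RefSeq on GRCm38.p6, where all 6 hosts matched by symbol. Of 13 source transcripts, 12 matched GENCODE M21 and kept the host's symbol.

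Columns were assigned by sample title, and 0 value columns were left unassigned. Members were all rows with 1 of the 6 host names; members and gene lists were chosen with earlier results of these data known. Counts were fitted with edgeR 4.0.16 (quasi-likelihood, TMM, default filter with a minimum count of 10 and a minimum total of 15) under R 4.3.3. All 8 libraries entered a joint fit with 3 group means, and p-values were adjusted by Benjamini-Hochberg over all features tested. Host sums were made over the whole table, and 32 rows without a host stayed out of them. The standard error was taken from the fold change and F. Named were the leading and every tested member, untested members by counts, and the 2 most similar circRNAs per leading circRNA. Related genes were to be named only past the threshold; the 3 named were chosen after their values were seen. DESeq2 1.42.0 and limma 3.58.1 were alternatives, beside other size factors, no filter, the deposited constant, only the groups compared, a replicate block and leaving out each library. Fits were tested on simulated data.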

Additional observations from a re-analysis of the deposited data

Results flagged for a closer look

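Cnot2 mmu_circ_0001979 was counted in both AC libraries and in no UUO library. It had 1 count over the control libraries (6.29 ± 10.9 CPM, SD, n = 3), 8 and 4 counts in AC replicates 1 and 2 (152.6 ± 50.8 CPM, SD, n = 2) and 0 in every UUO library. AC exceeded control by a ratio of 21.7 (95% exact interval from 3.22 to 929) and lay at least 6.60-fold above UUO. This interval and this floor cover counting error only, and the circRNA was picked out for this pattern. The circRNA was below the low-count filter, so the difference was not tested, and UUO is not shown to lie below control, since both groups are under the floor of 3 counts.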

How the results depend on the processing

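Of the described log2 fold changes against control, 477 comparisons with an alternative stayed within the set limits and 17 moved beyond them. Staying within the limits did not always keep the sign. Cnot2 mmu_circ_0000212 went from 0.198 to -0.004 in UUO without control replicate 3, and from -0.188 to 0.035 in AC without control replicate 2. Of the tested ones between UUO and AC, none passed the threshold, 242 with the same sign and 5 with the other. Those 5 were scarce circRNAs: without AC replicate 1, Cpeb3 mmu_circ_0000948 moved from -0.38 to 1.30 (from -1.07 to 1.30 over all libraries left out), Tdrd3 mmu_circ_0005486 from -0.68 to 1.16 (from -1.40 to 1.16) and Cnot2 mmu_circ_0001981 from 0.07 to -0.24 (from -0.24 to 0.47). The last was also -0.17 without UUO replicate 3 and -0.27 with the replicate block. The circRNAs called in UUO against control, 64 in all, were 37 with the deposited constant and 103 with DESeq2, and 10 to 75 with 1 library left out. In AC against control the 49 calls became 29 with the constant, 14 with only the groups compared, and 11 to 38 with 1 library left out. Between UUO and AC the 0 calls became 4 without a filter, 2 with DESeq2, 1 with only the groups compared and 0 to 1 with 1 library left out, none of them a member. Host sums called in UUO against control went from 77 to 49 with the constant and 36 to 87 with 1 library left out. In AC against control they went from 41 to 26 with only the groups compared and 22 to 48 with 1 library left out. Between UUO and AC the 0 host sums became 3 without a filter, 1 with DESeq2, 1 with only the groups compared and 0 to 1 with 1 library left out. The 1 isoform-use call became 0 with limma's diffSplice and 0 to 1 with 1 library left out. Deviations of same-numbered libraries from their group means had correlations from -0.113 to 0.0417. With so few libraries the deviations cancel within each group, so these correlations cannot exclude a shared batch or pairing. With the number as a replicate block, 12 circRNAs were called in UUO and 5 in AC against control, and 51 and 18 host sums; the calls of Mbnl2 mmu_circ_0004992 and Tdrd3 mmu_circ_0000561 were not made in either. The Mbnl2 call in UUO was also not made with the constant, without a filter and with limma-voom. The Tdrd3 call in AC was not made with only the groups compared. The cause of these shifts was not tested. At this depth 14 of 25 members could not be tested.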
